A study of Mus musculus with 12 samples.

Results

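The proteasome genes of mouse cortex were taken as every gene whose symbol begins with Psma, Psmb, Psmc, Psmd, Psme, Psmf or Psmg followed by a number, pseudogenes left out. The rule found 49 of the 36047 genes in the deposited table, and their 274 transcripts were summed to 1 value per gene. They comprise 8 core alpha and 8 core beta genes, the 3 inducible beta genes of the immunoproteasome (Psmb8, Psmb9 and Psmb10), 6 ATPase genes, 14 non-ATPase genes, 6 genes of activators and of an inhibitor, and 4 assembly chaperone genes. All 49 are annotated as protein coding, lie on 16 chromosomes and passed the filter on low values in every comparison. The study sequenced polyA RNA from dissected cortex of WT mice and of mice lacking GDE2 (Gde2KO), a surface enzyme encoded by Gdpd5 that releases proteins from their lipid anchor. The 4 groups were WT and Gde2KO at 4 months and WT and Gde2KO at 19 months, with 3 libraries each and 1 animal per library. The labels do not name the allele. The study's mice included a Gde2-/- line and an inducible line. It wrote Gde2KO for mice lacking GDE2 and called the knockouts of the inducible line conditional. Both sexes were used, and the strain was not given in the sources used here. At 4 months the libraries carry the numbers 1, 2 and 3 of their labels, and at 19 months, where there are none, the letters A, B and C by column order. Values are given in that order throughout.

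The proteasome is the protease that degrades most ubiquitin-tagged proteins of the cell. Its barrel-shaped core is built of rings of alpha and beta subunits, with the catalytic sites on Psmb5, Psmb6 and Psmb7, and a regulatory particle of ATPase and non-ATPase subunits binds, unfolds and feeds in the substrate. Interferon exchanges the catalytic subunits for Psmb8, Psmb9 and Psmb10, which changes the peptides offered to MHC class I, and in healthy brain this form is scarce and found mostly outside neurons.

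The 4-month libraries held 46434270 to 59728494 estimated reads, and the 19-month libraries 36915259 to 44604721 except for WT A with 6734475 and Gde2KO A with 3707928. Gde2KO 3 at 4 months stood apart, with a normalized TPM total of 1472300 against 1003570 to 1103970 in the other 4-month libraries, and values without it are given beside those that include it. Gdpd5 measured 684, 702 and 1199 normalized counts in WT and 417, 585 and 403 in Gde2KO at 4 months (log2 fold change -0.85, SE 0.25, limma adjusted p = 0.463), and 1065, 1129 and 952 normalized counts in WT and 441, 456 and 560.1 in Gde2KO at 19 months (log2 fold change -1.11, SE 0.12, limma adjusted p = 0.0111), so that it was lower in every Gde2KO library than in every WT library of its age. Reads of the gene remained in every Gde2KO library, and the deleted part was not measured on its own. Neuron markers were high in all 12 libraries, with sums of 6 genes from 172048 to 251606 normalized counts. The dissections differed: 7 hippocampal markers summed to 13516 and 12219 in WT 1 and WT 2 at 4 months and to no more than 2131 elsewhere, and 8 striatal markers summed to 3478 to 53447 in WT and 30726 to 73326 in Gde2KO at 4 months.

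On the scale of TPM, which corrects for transcript length, the constitutive genes of the core and the ATPases were the most abundant. Over the 12 libraries the mean TPM had a median of 153 among the 6 ATPases, 145 among the core alpha genes, 142.9 among the core beta genes and 89.6 among the non-ATPase genes. The levels of genes whose proteins enter the particle in equal copies were not equal: in the alpha ring they ran from 52.6 TPM for Psma2 to 230.4 for Psma7, and among the ATPases from 82.8 for Psmc6 to 252 for Psmc5. Non-ATPase genes ran from 12.7 TPM for Psmd10, an assembly factor also called gankyrin, to 139.7 for Psmd4, the ubiquitin receptor. The 4 assembly chaperones lay close together, between 21.4 TPM for Psmg3 and 30.1 for Psmg4, and Psmf1, the inhibitor, was at 23.3. Psme3, the nuclear activator, led the activators with 70.8 TPM, next to Psme2 with 62.7 and Psme1 with 59.2, which together form the interferon-induced cap. In the 19-month WT libraries Psme3 spanned 68.7 to 75.9 TPM and Psme2 50.5 to 70.2.

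At the bottom of the order stood genes whose products belong to other tissues, and a copy of Psme2. Psma8, the alpha subunit of the testis proteasome, averaged 0.48 TPM, Psmb11, the beta subunit of the thymus proteasome, 1.16, and Psme2b, a near-identical copy of Psme2 whose reads the counting could split between both genes, 1.18. The inducible genes were unequal. Psmb10 averaged 101 TPM, Psmb8 9.03 and Psmb9 3.04, beside 231 for Psmb7, 124 for Psmb5 and 245 for Psmb6, the constitutive subunits that they replace. Psmb8 (chr17:34197721-34201454, GRCm38) and Psmb9 (chr17:34181987-34187764) lie 9.96 kb apart on chromosome 17, Psmb5 and Psmb11 3.41 kb apart and Psme1 and Psme2 5.91 kb apart, both pairs on chromosome 14.

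Promoter sequences, from 250 bases before to 50 bases after the annotated start, were found for 41 of the 49 genes in RefSeq (GRCm38.p6), 44 promoters in all. Not matched were Psma8, Psmb1, Psmb2, Psmb7, Psmc3, Psmd3, Psmd7 and Psmg2. Nfe2l1, the transcription factor known to raise proteasome genes when proteasome activity falls, binds antioxidant response elements, whose core was searched as TGANNNNGC on both strands. At least 1 match lay in 25 of the 44 promoters, 56.8%, against 41.3% of all 32851 promoters of the same length. CCAAT lay in 14 promoters (31.8%, against 37.4% of all), and an interferon-type motif, GAAA repeated after a gap of 2 bases, lay in 5, those of Psmb3, Psmd4, Psmd9, Psme1 and Psmg4 (11.4%, against 3.44%). Psmb9, the 1 gene called between the ages in both genotypes, and its constitutive counterpart Psmb6 both held TGANNNNGC upstream of their RefSeq start, as did Psmb5. Their windows of 30 bases are printed 5′ to 3′ along the gene, with the matching letters in capitals. The windows are chr14:54618023-54618052, minus strand, for Psmb5, chr11:70525327-70525356, plus strand, for Psmb6, and chr17:34187371-34187400, minus strand, for Psmb9. The match begins 47 bases before the RefSeq start in Psmb5, 9 in Psmb6 and 60 in Psmb9. The Psmb9 window lies inside the span of Psmb9 given above, so it is upstream of the RefSeq start but not of that span. A match describes these letters and not a bound site.
Psmb5: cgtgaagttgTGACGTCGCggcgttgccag
Psmb6: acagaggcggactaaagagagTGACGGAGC
Psmb9: ccttgcgcgaTGATGGGGCggggcctcagt

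The comparison of Gde2KO with WT at 4 months asked whether loss of GDE2 alters expression in young adult cortex. Of the 49 proteasome genes 46 had a positive log2 fold change, with a median of 0.26 (Gde2KO over WT) beside 0.11 over all genes tested, and the 3 others were Psmb11, Psmd5 and Psme2b. In limma's test across all genes, 0 of the 49 genes passed both thresholds for a call, which were an adjusted p under 0.1 and a log2 fold change beyond 0.721 in either direction, against 0.126% of all genes, and the lowest adjusted p among them was 0.463. At an unadjusted p under 0.05 there were 2, Psmb10 and Psmf1, against 10.6% of all genes. Groups that did not overlap were found for 3 genes, Psma8, Psmb9 and Psmf1, all higher in Gde2KO, against 11.1% of all genes. A median ratio scaling of the libraries, which moved the median of all genes to 0.0068, left the proteasome genes at 0.16, and without WT 1 and WT 2, the libraries with hippocampal markers, they stood at 0.32. With 3 libraries against 3, an exact two-sided permutation test on a single gene cannot give a p below 0.1. Since the samples are bulk tissue, fewer cells of a type and less RNA per cell cannot be told apart here or in any comparison.

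The inducible Psmb10 measured 882, 725 and 1082 normalized counts in WT and 1274, 1045 and 2318 in Gde2KO at 4 months (log2 fold change 0.72, SE 0.29, limma adjusted p = 0.463, unadjusted p = 0.0407), and its log2 fold change was 0.38 without Gde2KO 3. Only WT 3 at 1082 reached into the range of the Gde2KO libraries, whose highest value was that of library 3. The lower values were those of WT 1 and WT 2, the libraries with hippocampal markers. Relative to Psmb7, Psmb10 had 28.9, 29.3 and 42.3 percent of the TPM in WT and 41.6, 40.5 and 42.9 percent in Gde2KO. The part of the dissection in this difference was not tested. Psmf1, the proteasome inhibitor subunit, measured 749, 754 and 815 normalized counts in WT and 969.7, 845 and 1246 in Gde2KO at 4 months (log2 fold change 0.38, SE 0.17, limma adjusted p = 0.463, unadjusted p = 0.0497), and its log2 fold change was 0.23 without Gde2KO 3. Its groups did not overlap, with Gde2KO 2 just above WT 3. Psma8 measured 10.1, 7.86 and 9.56 normalized counts in WT and 14.4, 12.9 and 22.8 in Gde2KO at 4 months (log2 fold change 0.80, SE 0.36, limma adjusted p = 0.463, and 0.56 without Gde2KO 3), a level near the limit of detection. Of the other inducible genes, Psmb8 measured 112, 87.8 and 114 normalized counts in WT and 119, 96.2 and 164 in Gde2KO at 4 months and Psmb9 34.6, 29.0 and 32.8 normalized counts in WT and 37.0, 35.9 and 66.7 in Gde2KO at 4 months. Psmb8 overlapped between the genotypes, and in Psmb9 Gde2KO 1 and 2 lay just above WT 1. Beside these genes, 5 T cell markers summed to 90.2, 100.4 and 302 normalized counts in WT and 372, 326 and 801 in Gde2KO. Nkg7 was at 0 in 1 or more libraries. The 8 microglia markers summed to 8720, 7979 and 10338 in WT and 10782, 9899.6 and 15674 in Gde2KO, none at 0. Only 4 of the T cell markers were tested, and 2 had a positive and 2 a negative log2 fold change, from -0.25 to 3.33. Gde2KO 3 had the highest sum of both lists. Among the 4-month libraries it was also highest for neuron (251606), oligodendrocyte (151477) and blood (11312) markers. It was not highest for astrocyte, endothelial, choroid plexus, hippocampal or striatal markers. Its total of normalized counts was 41229100, against 31917400 to 35949200 in the other 4-month libraries. The part of these cells in the result was not tested.

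The positive shift at 4 months lay mostly in 1 library. Measured from the mean of the WT libraries, the median log2 difference of the 49 genes was 0.18, -0.08 and 0.72 in Gde2KO 1, 2 and 3, and 0.11, -0.05 and -0.06 in WT 1, 2 and 3. In Gde2KO 3 it reached 1.05 for the immunoproteasome genes, 0.91 for core alpha, 0.83 for core beta, 0.78 for the chaperones, 0.60 for the ATPases, 0.58 for the non-ATPase genes and 0.51 for activators and inhibitor. That library held the highest of the 6 values for 45 of the 49 proteasome genes and for 44.0% of all genes. Without it, 37 of the 49 fold changes were positive and their median was 0.05, beside 0.04 over all genes. At an unadjusted p under 0.05 there were then 0 genes. The core genes stood at 0.03 (alpha) and 0.01 (beta), the ATPases at 0.07 and the immunoproteasome genes at 0.18.

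**Figure D1:**
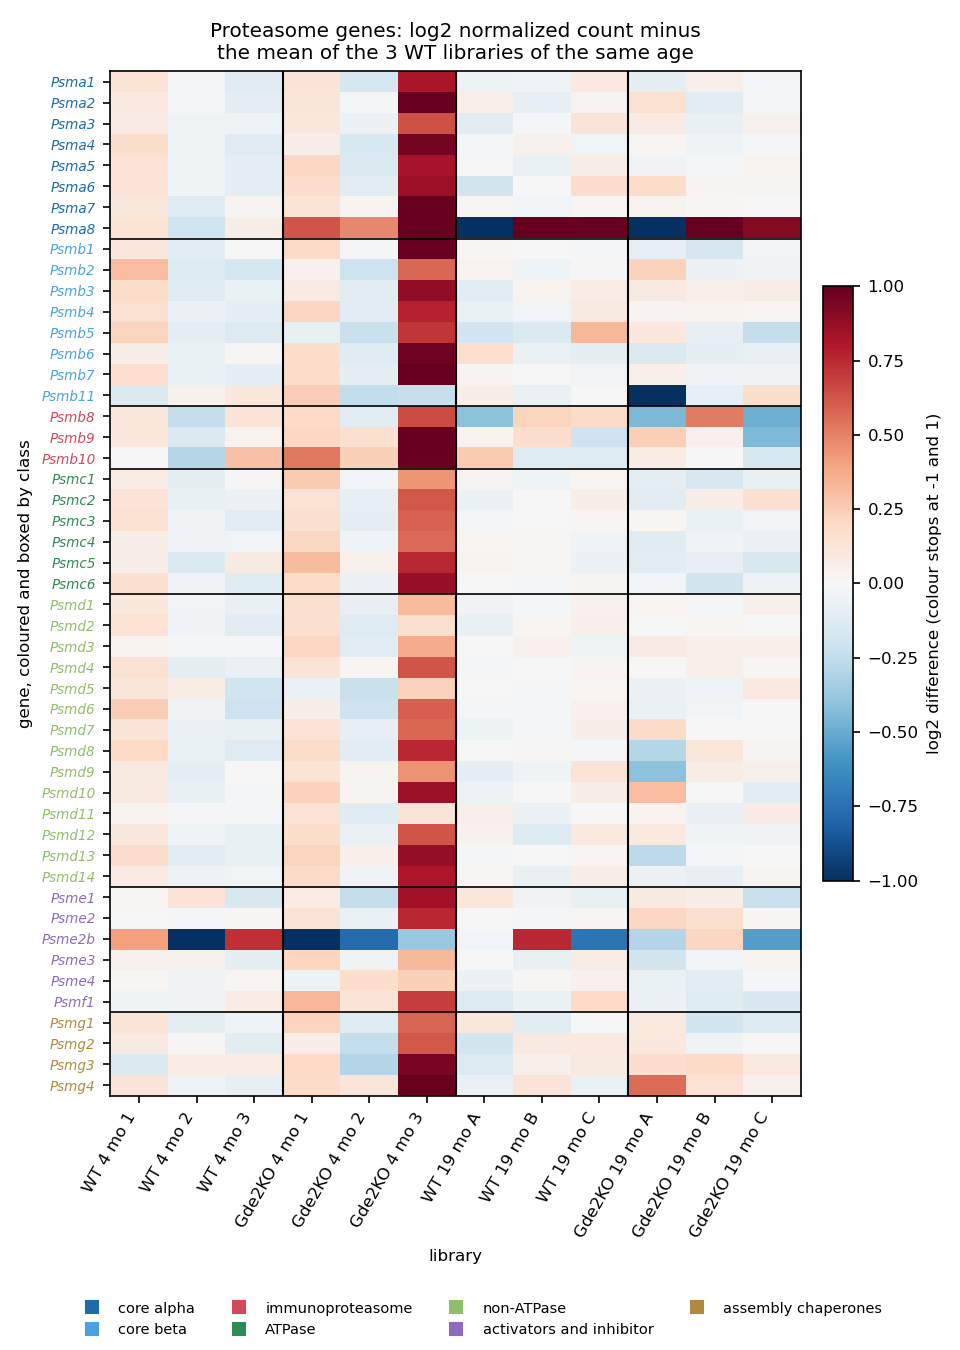
Each row is 1 proteasome gene and each column 1 library. Colour gives the log2 normalized count minus the mean of the 3 WT libraries of the same age, red higher and blue lower, with rows boxed by class and columns boxed by group. Gde2KO 3 at 4 months is the red column, highest of the 6 libraries of its age for 45 of the 49 genes, while the other columns are mostly pale. Stronger cells there include the rare genes Psma8, Psmb11 and Psme2b. Others are Psmb10 in Gde2KO 1 (0.53), Psmg4 in Gde2KO A (0.56), and Psmb8 in Gde2KO B (0.52) and Gde2KO C (-0.49).

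The deviation of Gde2KO 3 followed transcript length. Across 13010 genes, Spearman's rho between count-weighted transcript length and the log2 difference of Gde2KO 3 from the mean of the other 5 libraries was -0.61, and across the 49 proteasome genes it was -0.54. These are descriptions across genes of 1 library, which are not independent. Over 5 bins of equal size, ordered by length, the median difference ran from 0.65 in the shortest (median length 1279 bases) through 0.40, 0.26 and 0.12 to -0.10 in the longest (median length 6430.0 bases). Most proteasome transcripts are short, with medians of 1027 bases for core beta and 1211 for core alpha against 1542 for the ATPases and 1885 for the non-ATPase genes. Short Psmb6 (793 bases) differed by 0.96 and long Psmd2 (2946 bases), the scaffold of the regulatory particle, by 0.15. Psma2 was an exception, with 2826 bases and a difference of 1.06. With the length trend of every library removed, the median genotype difference of the 49 genes was 0.07, beside 0.0093 over all genes, and that of the immunoproteasome genes 0.26.

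**Figure D2:**
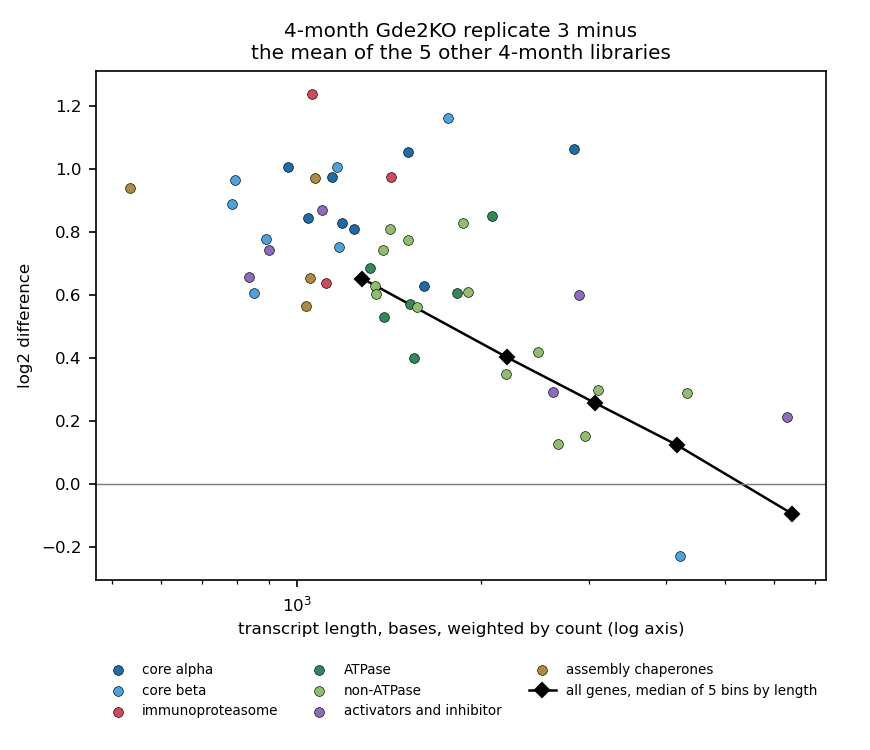
Each dot is 1 proteasome gene, coloured by class, at its count-weighted transcript length in bases (log axis) and its log2 difference between Gde2KO 3 and the mean of the other 5 libraries at 4 months. Black diamonds give the median of all genes in each of 5 bins by length, falling from 0.65 to -0.10, and the proteasome genes fall with length as well.

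The spread between replicates differed between the groups. Over the 45 genes with a mean above 100 normalized counts, the median SD of log2 values was 0.118 in WT and 0.429 in Gde2KO at 4 months, and 0.0578 and 0.0741 at 19 months. Over all genes above that level the corresponding values were 0.134, 0.215, 0.0966 and 0.104. The proteasome genes were thus steadier than the typical gene in the WT groups and at 19 months and less steady in Gde2KO at 4 months.

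At 19 months, the age at which the study examined aged cortex, the genotypes lay close together. The median log2 fold change of the 49 genes was -0.02, beside -0.02 over all genes, with 21 positive and 28 negative. Limma called 0 of the 49, against 0.0969% of all genes, and 1, Psmc5, had an unadjusted p under 0.05, against 6.91% of all genes. Groups did not overlap for 7 genes, against 14.2% of all genes, of which 2 were higher in Gde2KO (Psmd3 and Psmg3, against 5.85%) and 5 lower (Psmb1, Psmc1, Psmc4, Psmc5 and Psmc6, against 8.32%).

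These shares are near those of all genes and say nothing about the proteasome genes as a group. The smallest p belonged to ATPases, the ring that unfolds substrate. Psmc5 measured 5088, 5034 and 4775 normalized counts in WT and 4603, 4677 and 4443 in Gde2KO at 19 months (log2 fold change -0.12, SE 0.05, limma adjusted p = 0.711, unadjusted p = 0.0449). Psmc1 measured 4724, 4503 and 4695 normalized counts in WT and 4329, 4178 and 4409 in Gde2KO at 19 months (log2 fold change -0.11, SE 0.05, limma adjusted p = 0.711, unadjusted p = 0.0581). Every Gde2KO library of both genes was below every WT library. Psmb1, a core beta subunit without a catalytic site, measured 2562, 2533 and 2490.1 normalized counts in WT and 2388, 2256 and 2485 in Gde2KO at 19 months (log2 fold change -0.09, SE 0.06, limma adjusted p = 0.734). The median over the 6 ATPases was -0.08, and -0.04 with the length trend removed. The range over all 49 genes was set by genes of low counts: -0.39 for Psmb11 (70.1, 64.3 and 67.3 normalized counts in WT and 27.7, 63.4 and 76.0 in Gde2KO at 19 months) and 0.25 for the chaperone Psmg4 (107, 123 and 107 normalized counts in WT and 166, 124 and 115 in Gde2KO at 19 months). In both the extreme value was Gde2KO A, the shallowest library.

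**Figure D3:**
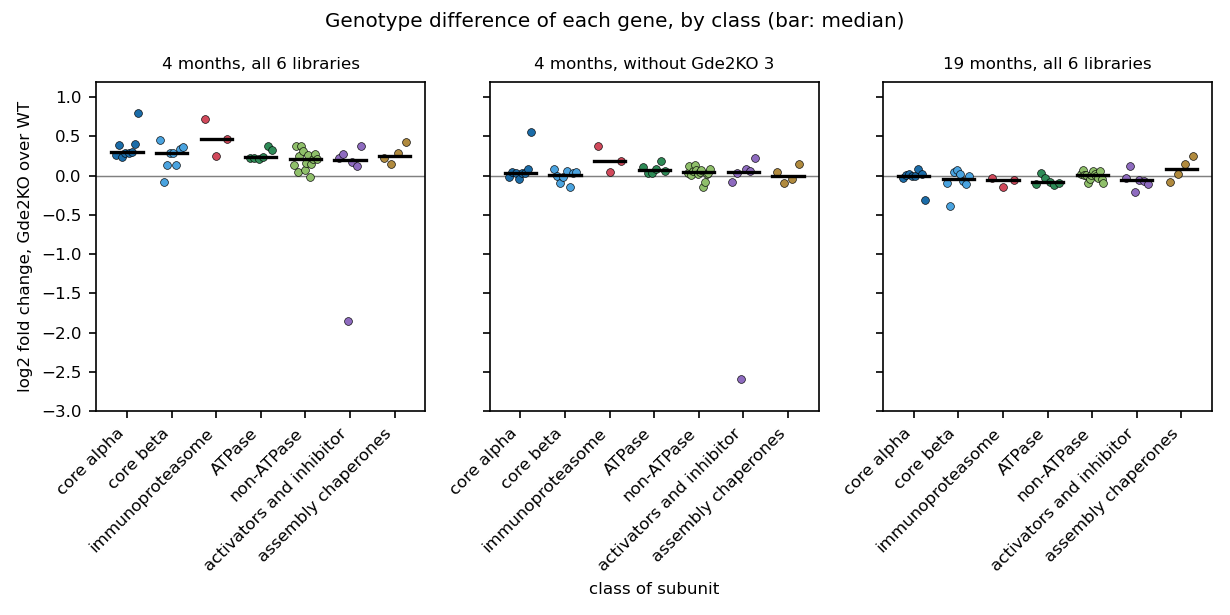
Each dot is the log2 fold change (Gde2KO over WT) of 1 proteasome gene, grouped by class, with a bar at the class median, at 4 months with all 6 libraries, at 4 months without Gde2KO 3, and at 19 months. The median over all 49 genes is 0.26, 0.05 and -0.02 in the 3 panels. The lone low dot at 4 months is Psme2b, at -1.85 with all libraries and -2.59 without Gde2KO 3.

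The test of whether the genotype difference itself differed between the ages called 0 of the 49 genes at an adjusted p under 0.1 in limma's fit to all 12 libraries, against 0.048% of all genes. The interaction (19-month minus 4-month difference) was negative for 47 of the 49, with a median of -0.27 beside -0.15 over all genes, and without Gde2KO 3 its median was -0.05 beside -0.08. At an unadjusted p under 0.05 there were 2 genes, against 12.9% of all genes. Psmf1, whose groups did not overlap at 4 months, measured 865, 910.2 and 1093 normalized counts in WT and 915, 874 and 857 in Gde2KO at 19 months and gave an interaction of -0.49 (SE 0.20, limma adjusted p = 0.372, unadjusted p = 0.0273), or -0.34 without Gde2KO 3. Psmc5, at 4831, 4192 and 4936 normalized counts in WT and 5775, 4791 and 7837 in Gde2KO at 4 months, gave -0.49 (SE 0.20, limma adjusted p = 0.372, unadjusted p = 0.033), and Psmc1, at 4765, 4258 and 4555 normalized counts in WT and 5407, 4428 and 6154 in Gde2KO at 4 months, gave -0.33 (limma adjusted p = 0.388). Without Gde2KO 3 the interactions were -0.30 for Psmc5 and -0.22 for Psmc1. In both ATPase genes Gde2KO 3 was the highest of the 4-month libraries.

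The larger differences lay between the ages. The 4-month and 19-month libraries form separate sets, so that age cannot be told apart from anything else that differed between them, and the comparisons within WT and within Gde2KO share the fit but no library. In WT, 37 of the 49 fold changes (19 over 4 months) were negative with a median of -0.26, beside -0.07 over all genes. Limma called 1 gene, Psmb9, which was higher, against 6.29% of all genes called higher and 13.7% called in either direction. Without WT 1 at 4 months the median was -0.17 and without WT 2, which held hippocampal markers as well, -0.27. Marker sums of other cell types also differed between the ages in WT. Sums of 6 astrocyte markers were 32854 to 54904 normalized counts at 4 months and 24454 to 26247 at 19 months. Those of 6 oligodendrocyte markers were 109018 to 139291 and 79198 to 105250.0. Those of 6 endothelial markers were 4515 to 5703 and 6350.4 to 7750.2. In each case the ages did not overlap and no marker was at 0. Single astrocyte markers did not all follow their sum: 5 had a negative log2 fold change and 1 a positive one (0.35). At limma's adjusted p under 0.1 alone, 3 of these were lower and 1 higher. The endothelial markers were 5 positive and 1 negative. Sums of 6 neuron markers were also apart, 172048 to 186889 and 204368 to 212471. The part of these cells and of the dissection in the differences was not tested.

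Psmb9 is the inducible subunit that takes the place of Psmb6. Psmb9 measured 34.6, 29.0 and 32.8 normalized counts in the 4-month WT libraries and 37.0, 35.9 and 66.7 in the 4-month Gde2KO libraries, against 79.2, 87.3 and 67.2 in WT and 91.2, 80.0 and 56.9 in Gde2KO at 19 months. In WT its groups did not overlap and the call was kept in 24 of 24 alternatives (log2 fold change 1.26, SE 0.29, limma adjusted p = 0.0129). In Gde2KO it was called as well (log2 fold change 0.74, SE 0.29, limma adjusted p = 0.0835), a call kept in 12 of 24 alternatives. Not all alternatives are independent checks. A called gene passes the adjusted p alone by definition, and leaving out a library of the other genotype cannot move the fold change. The Gde2KO call was not made without both 19-month libraries of low depth. Of these, Gde2KO A gave the highest 19-month value, 91.2, and 1 estimated read there is worth 8.29 normalized counts. Gde2KO 3 at 4 months, with 66.7, exceeded Gde2KO C at 19 months, with 56.9. Psmb6 measured 2679, 2459 and 2597 normalized counts in the 4-month WT libraries and 2913, 2374 and 5071 in the 4-month Gde2KO libraries, against 2157, 1846 and 1804 in WT and 1742, 1816 and 1831 in Gde2KO at 19 months. Psmb6 was lower at 19 months in every library of both genotypes, in WT by a log2 fold change of -0.42 that limma did not call (adjusted p = 0.174). Within each library, a ratio that its scaling leaves untouched, the TPM of Psmb9 was 0.901, 0.555 and 0.624 percent of that of Psmb6 in WT and 0.574, 0.746 and 0.735 percent in Gde2KO at 4 months, and 1.99, 2.35 and 1.67 percent and 2.94, 2.24 and 1.44 percent at 19 months. All 6 older libraries were above all 6 younger ones, Gde2KO 3 included, and the genotypes overlapped at both ages.

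For the other inducible genes limma called no difference between the ages (log2 fold changes 0.27 in WT and -0.48 in Gde2KO for Psmb10, and 0.39 and 0.00017 for Psmb8). Psmb10 measured 1277, 973 and 976 normalized counts in WT and 1119.6, 1061 and 955 in Gde2KO at 19 months, within the range of its 4-month values. Relative to Psmb7, Psmb10 had 28.9 to 42.9 percent of the TPM at 4 months and 44.8 to 60.8 percent at 19 months, and all 6 older libraries were again above the younger ones, the nearest pair being Gde2KO 3 at 4 months and WT B at 19 months. Psmb7 itself was lower at 19 months in every library, which limma did not call in WT (log2 fold change -0.36, SE 0.21, limma adjusted p = 0.251). Psmb7 measured 4537, 3855 and 3772 normalized counts in the 4-month WT libraries and 4594, 3785 and 8207 in the 4-month Gde2KO libraries, against 3209, 3167 and 3095 in WT and 3267, 3073 and 3079 in Gde2KO at 19 months. Psmb8 measured 102, 158 and 155 normalized counts in WT and 99.5, 195 and 96.8 in Gde2KO at 19 months. Relative to Psmb5, Psmb8 had 5.96 to 8.13 percent of the TPM at 4 months and 5.67 to 10.3 percent at 19 months, and these ranges overlap. Psmb5 differed from the other constitutive catalytic genes in the sign of its fold change, 0.39 in WT and 0.17 in Gde2KO, neither called (limma adjusted p = 0.244 and 0.601). Psmb5 measured 1434, 1154 and 1112 normalized counts in the 4-month WT libraries and 1167, 1048 and 2017 in the 4-month Gde2KO libraries, against 1406, 1448 and 2019 in WT and 1725, 1512 and 1355 in Gde2KO at 19 months.

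**Figure D4:**
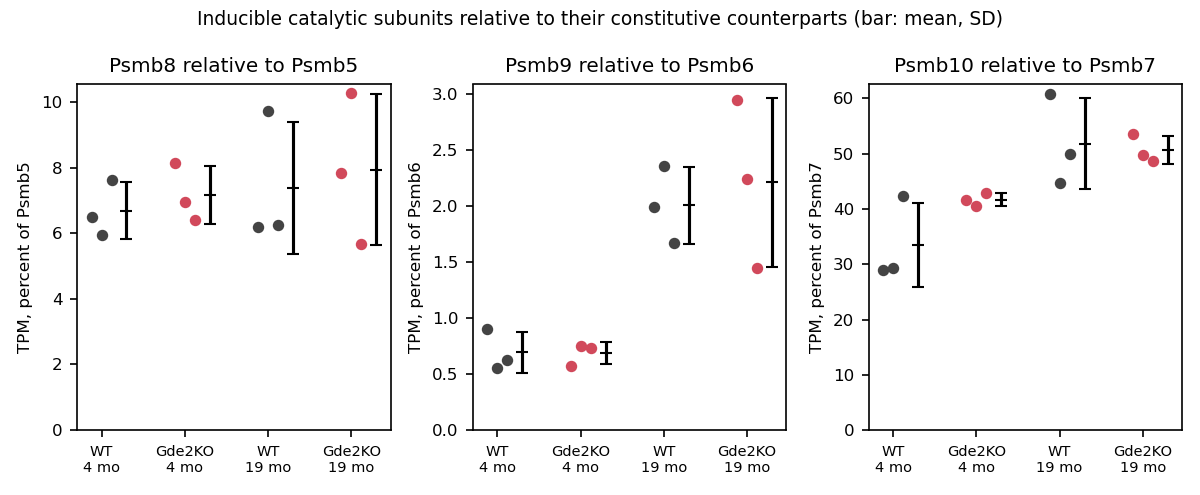
Each dot is 1 library. The vertical axes, from 0, give the TPM of an inducible catalytic gene as a percent of that of its constitutive counterpart, by genotype and age, and bars beside the dots give mean and SD (n = 3). Psmb9 relative to Psmb6 lies at 0.555 to 0.901 percent in the 4-month and 1.44 to 2.94 percent in the 19-month libraries, while Psmb8 relative to Psmb5 overlaps between all groups.

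Genes of antigen presentation, which carry peptides made by proteasomes to the cell surface, were set beside Psmb9. In WT all 10 genes of that list had positive log2 fold changes between the ages, with a median of 0.59. Called higher were 3, against 6.29% of all genes: the peptide transporter subunit Tap2 (log2 fold change 0.83, SE 0.14, limma adjusted p = 0.00302) and the class I heavy chains H2-K1 (log2 fold change 0.76, SE 0.20, limma adjusted p = 0.0215) and H2-D1 (log2 fold change 1.11, SE 0.23, limma adjusted p = 0.00822). In Gde2KO 7 of the 10 were positive, with a median of 0.28. Called higher was 1, against 2.55% of all genes, the transporter subunit Tap1 (log2 fold change 0.79, SE 0.24, limma adjusted p = 0.0344). Without Gde2KO 3 at 4 months, 9 of the 10 were positive in Gde2KO, with a median of 0.37. There 1 was called higher, against 5.91% of all genes called in either direction. With the length trend removed the medians were 0.70 in WT and 0.48 in Gde2KO. Psme1 and Psme2, the interferon-induced cap, were not called: their log2 fold changes in WT were -0.19 and -0.13 (limma adjusted p = 0.566 and 0.616), and the TPM of both together spanned 118 to 126 in WT at 4 months and 102 to 127 at 19 months. The 5 T cell markers, with Nkg7 at 0 in 1 or more libraries, summed to 90.2 to 302 normalized counts in WT at 4 months, 284 to 338 at 19 months, and 326 to 801 and 284 to 312 in Gde2KO. Of the 4 tested between the ages, 2 had a positive and 2 a negative log2 fold change in WT, from -0.90 to 2.67. Sums of the 8 microglia markers were 7979 to 10338 and 9127 to 9964 in WT and 9899.6 to 15674 and 8306 to 11868 in Gde2KO, and overlapped between the ages in both genotypes. The part of these cells in the difference of Psmb9 was not tested.

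Most core genes stood lower at 19 months in both genotypes, with class medians below those of the regulatory particle. In WT the median log2 fold change was -0.46 over the 8 core alpha genes, none of them positive, and -0.38 over the 8 core beta genes, 7 of them negative. It was -0.20 over the non-ATPase genes, -0.06 over the ATPases, -0.30 over the chaperones and 0.14 over activators and inhibitor. Single genes ran from -1.27 to -0.39 in core alpha, the lowest being the rare Psma8, from -0.36 to 0.10 among the ATPases and from -0.52 to 0.07 among the non-ATPase genes. None of the 37 negative differences was called. At an adjusted p under 0.1 alone 7 genes were lower, against 15.1% of all genes: Psma3, Psma4, Psma6, Psmb4, Psmd5, Psmd6 and Psmd10. This share is near that of all genes and says nothing about the proteasome genes as a group. Groups did not overlap, in the lower direction, for 29 of the 49 genes, among them Psma1 to Psma7, against 26.7% of all genes.

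Psmb4 measured 4734, 4091 and 4013 normalized counts in the 4-month WT libraries and 4945, 3969 and 7293 in the 4-month Gde2KO libraries, against 2805, 2880.5 and 3113 in WT and 2986, 3008 and 2965 in Gde2KO at 19 months. This core beta gene was lower in all 6 older libraries than in all 6 younger ones (log2 fold change -0.54, SE 0.17, limma adjusted p = 0.0445 in WT). Psma6 measured 3046, 2694 and 2612 normalized counts in the 4-month WT libraries and 3139, 2572 and 5032 in the 4-month Gde2KO libraries, against 1626, 1856 and 2086 in WT and 2098, 1886 and 1881 in Gde2KO at 19 months. Psma6, of the alpha ring, showed the same order of libraries (log2 fold change -0.59, SE 0.19, limma adjusted p = 0.0542 in WT). Psma3 measured 3226, 2948 and 2954 normalized counts in the 4-month WT libraries and 3295, 2915 and 4738 in the 4-month Gde2KO libraries, against 2055, 2197 and 2431 in WT and 2355, 2111 and 2288 in Gde2KO at 19 months. The alpha genes Psma3 (log2 fold change -0.45, SE 0.15, limma adjusted p = 0.0538) and Psma4 (log2 fold change -0.54, SE 0.21, limma adjusted p = 0.0976) were alike in WT. Psmd5, a chaperone that guides assembly of the ATPase ring, gave the second smallest p (log2 fold change -0.45, SE 0.12, limma adjusted p = 0.0273), with 1834, 1775 and 1466 normalized counts in WT at 4 months and 1226, 1218 and 1252 at 19 months. Psmd6, a subunit of the lid, had 2672, 2199 and 1947 and 1547, 1549 and 1621 (log2 fold change -0.52, SE 0.17, limma adjusted p = 0.0548). The ATPases Psmc1 and Psmc5, by contrast, spanned 4258 to 4765 and 4192 to 4936 normalized counts in WT at 4 months and 4503 to 4724 and 4775 to 5088 at 19 months, and both overlapped.

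Because Gde2KO 3 enters the estimate of spread shared by the 4 groups, the WT comparison was also made without it. The fold changes of WT stayed as they were, and at an adjusted p under 0.1 alone 21 genes were lower, against 20.4% of all genes, and 4 were higher, against 15.7%. The lower ones included 7 of the 8 core alpha and 5 of the 8 core beta genes, and 2 of the 6 ATPases. With the length trend of every library removed, 15 genes were lower, against 16.1% of all genes, among them 6 core alpha genes, and 6 were higher, against 18.7%. The class medians in WT were then -0.41 for core alpha, -0.21 for core beta, 0.00056 for the ATPases and -0.17 for the non-ATPase genes, beside -0.0027 over all genes. In both fits Psmb9 was called. Without both 19-month libraries of low depth, 2 genes were lower at an adjusted p under 0.1 alone, against 11.3% of all genes, and Psmb9 was called.

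Ratios within a library, which need no scaling between libraries, gave the same order. The summed TPM of Psma1 to Psma7 was 118, 119.9 and 112 percent of the sum of the 6 ATPases in WT and 109.7, 113 and 144 percent in Gde2KO at 4 months, and 86.6, 87.2 and 93.8 percent and 93.4, 91.1 and 93.5 percent at 19 months. The 6 older libraries were all below the 6 younger ones, and the genotypes overlapped except for the higher value of Gde2KO 3. The sum of Psmb1 to Psmb7 was 128 to 172 percent of that of the ATPases at 4 months and 111 to 123 percent at 19 months, again without overlap. For the 14 non-ATPase genes the ranges were 122 to 134 and 116 to 125 percent, which overlap. Core transcripts are shorter than those of the ATPases, and the part of length in these ratios was not tested.

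In Gde2KO the comparison of the ages called 17 genes, 2 higher and 15 lower, against 2.55% and 9.32% of all genes. The lower ones were 5 core alpha genes (Psma2, Psma4, Psma5, Psma6 and Psma7), 5 core beta genes (Psmb1, Psmb4, Psmb6, Psmb7 and Psmb11), the ATPase Psmc6, the non-ATPase genes Psmd10, Psmd13 and Psmd14, and the chaperone Psmg4. The median log2 fold change of the 49 genes was -0.43, beside -0.21 over all genes, with -0.79 for core alpha and -0.77 for core beta. None of the 15 lower calls was made without Gde2KO 3 at 4 months. There were then 2 called genes, Psmb9 and Psme2b, both higher, against 5.91% of all genes called in either direction, the median was -0.21, beside -0.14, and the core medians were -0.50 (alpha) and -0.48 (beta), beside -0.46 and -0.38 in WT. At an adjusted p under 0.1 alone 17 genes were then lower, against 14.7% of all genes, among them 7 of the 8 core alpha genes. The tissue markers moved with age here too: sums of 8 striatal markers were 30726 to 73326 normalized counts at 4 months and 8829.6 to 19676 at 19 months, and those of 6 oligodendrocyte markers 136377 to 151477 and 93135 to 120824, without overlap and with no marker at 0, while those of 6 astrocyte markers were 31672 to 41504 and 26491 to 34879.5, which overlap. The part of these cells was not tested.

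The values by library show what Gde2KO 3 adds. Psmb1 measured 3624, 3125 and 3365 normalized counts in WT and 3843, 3339 and 7709 in Gde2KO at 4 months, where its 19-month libraries, given above, did not exceed 2562. Psma7 measured 3105, 2647 and 2941 normalized counts in the 4-month WT libraries and 3181, 2951 and 5939 in the 4-month Gde2KO libraries, against 2227, 2169 and 2235 in WT and 2264, 2225 and 2222 in Gde2KO at 19 months. In both, Gde2KO 3 was far above the other 5 libraries of 4 months, and all 6 older libraries were below all 6 younger ones (in Gde2KO, log2 fold change -0.96, SE 0.23, limma adjusted p = 0.0166 and log2 fold change -0.77, SE 0.20, limma adjusted p = 0.0219). Without Gde2KO 3 the log2 fold changes were -0.59 and -0.45. Psma2 measured 2799, 2590.1 and 2451 normalized counts in the 4-month WT libraries and 2840.2, 2580.5 and 5537 in the 4-month Gde2KO libraries, against 1955, 1779 and 1921 in WT and 2098, 1744 and 1854 in Gde2KO at 19 months. Psma5 measured 2209, 1934 and 1866 normalized counts in the 4-month WT libraries and 2306, 1806 and 3533 in the 4-month Gde2KO libraries, against 1453, 1392 and 1523 in WT and 1418, 1444 and 1488 in Gde2KO at 19 months. Psma4 measured 3043, 2607 and 2458 normalized counts in the 4-month WT libraries and 2797, 2422 and 5215 in the 4-month Gde2KO libraries, against 1836, 1908 and 1819.6 in WT and 1883, 1801 and 1843 in Gde2KO at 19 months. For these genes of the alpha ring all older libraries were below all younger ones, and without Gde2KO 3 the log2 fold changes in Gde2KO were -0.52 for Psma2, -0.49 for Psma5 and -0.50 for Psma4, in place of -0.86, -0.76 and -0.83.

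Psmd14 measured 2360.0, 2153 and 2185 normalized counts in the 4-month WT libraries and 2543, 2174 and 3900.1 in the 4-month Gde2KO libraries, against 1709.8, 1607 and 1774 in WT and 1625, 1606 and 1732 in Gde2KO at 19 months. Psmd14 is the deubiquitinase of the lid, and its older libraries were also below all younger ones (log2 fold change -0.75, SE 0.17, limma adjusted p = 0.0129, and -0.51 without Gde2KO 3). Psmd13 measured 2828, 2328 and 2376 normalized counts in the 4-month WT libraries and 2911, 2588 and 4609 in the 4-month Gde2KO libraries, against 1989, 2005 and 2041 in WT and 1675, 1993 and 2022 in Gde2KO at 19 months. Psmc6 measured 2779.6, 2421 and 2280.1 normalized counts in the 4-month WT libraries and 2818, 2389 and 4557 in the 4-month Gde2KO libraries, against 1933, 1916 and 1978 in WT and 1907, 1706 and 1877 in Gde2KO at 19 months. In both genes all older libraries were below all younger ones. For these regulatory subunits the log2 fold change in Gde2KO went from -0.79 to -0.54 (Psmd13) and from -0.78 to -0.51 (Psmc6) without Gde2KO 3.

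Psmd10 measured 317, 283 and 294 normalized counts in the 4-month WT libraries and 349.6, 302 and 540.5 in the 4-month Gde2KO libraries, against 203, 209.6 and 219.5 in WT and 261, 210.3 and 195 in Gde2KO at 19 months. All older libraries were below all younger ones. Psmg4 measured 180.2, 160.3 and 156 normalized counts in WT and 187, 180.1 and 331 in Gde2KO at 4 months and 107, 123 and 107 normalized counts in WT and 166, 124 and 115 in Gde2KO at 19 months. Psmg4, the partner of Psmg3 in alpha ring assembly, was lower in the older libraries except in Gde2KO A, the shallowest, which lay within the younger range. Psmg3 measured 247, 286 and 287 normalized counts in the 4-month WT libraries and 313, 222 and 527 in the 4-month Gde2KO libraries, against 200.3, 229 and 235 in WT and 249, 253 and 236 in Gde2KO at 19 months. Psmg3 overlapped between the ages in Gde2KO and was not called in either genotype (limma adjusted p = 0.4 in WT and 0.209 in Gde2KO). Psmb11 measured 91.2, 104 and 109 normalized counts in the 4-month WT libraries and 120.2, 85.1 and 86.2 in the 4-month Gde2KO libraries, against 70.1, 64.3 and 67.3 in WT and 27.7, 63.4 and 76.0 in Gde2KO at 19 months. Psmb11 was called in Gde2KO (log2 fold change -0.90, SE 0.32, limma adjusted p = 0.0634), where the lowest library was again Gde2KO A. Psme2b measured 13.6, 4.33 and 17.1 normalized counts in the 4-month WT libraries and 0, 5.73 and 7.67 in the 4-month Gde2KO libraries, against 17.2, 29.9 and 10.4 in WT and 14.2, 20.4 and 11.8 in Gde2KO at 19 months. The call of Psme2b in Gde2KO (log2 fold change 2.41, SE 0.94, limma adjusted p = 0.0846) rests on values between 0 and 20.4, its fold change depends on the pseudocount, and reads of the near-identical Psme2 may enter it. Psma8 measured 10.1, 7.86 and 9.56 normalized counts in the 4-month WT libraries and 14.4, 12.9 and 22.8 in the 4-month Gde2KO libraries, against 0, 7.62 and 15.1 in WT and 0, 8.43 and 7.02 in Gde2KO at 19 months. Psma8 was at 0 in WT A and Gde2KO A, the libraries of lowest depth, where 1 estimated read is worth 4.66 and 8.29 normalized counts, and no change between the ages was detectable at this depth (limma adjusted p = 0.508 in WT).

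**Figure D5:**
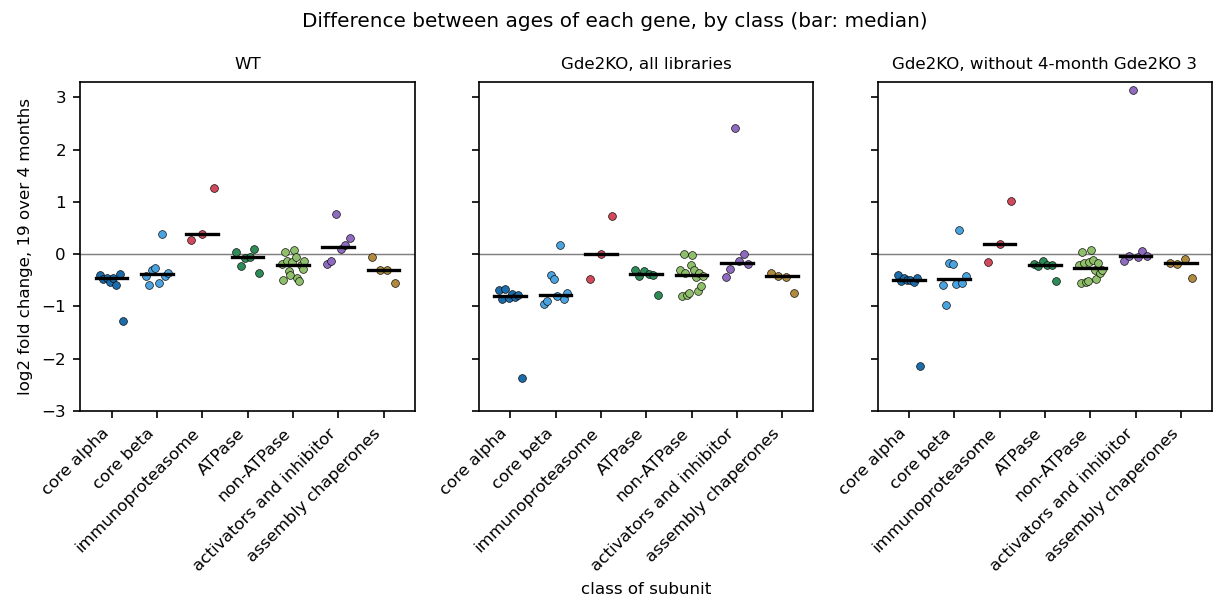
Each dot is the log2 fold change between the ages (19 over 4 months) of 1 proteasome gene, grouped by class, with a bar at the class median, in WT, in Gde2KO, and in Gde2KO without library 3 of 4 months. The core alpha median is -0.46, -0.79 and -0.50 in the 3 panels and the ATPase median -0.06, -0.38 and -0.21, and the highest dot of the immunoproteasome class is Psmb9. The lone low dots are Psma8 and the lone high dots of the activators Psme2b, both of few counts.

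The activators other than Psme2b and the inhibitor were not called between the ages in either genotype. In Gde2KO the log2 fold change was -0.44 for Psme1, -0.28 for Psme2, -0.13 for Psme3 and -0.19 for Psmf1. Psme4, the large nuclear activator, spanned 1720.2 to 1794 normalized counts in WT at 4 months and 1924 to 2069 at 19 months, and Psmf1 749 to 815 and 865 to 1093, both without overlap and both higher at 19 months, with log2 fold changes of 0.18 and 0.30 that limma did not call (adjusted p = 0.175 and 0.146). Psme3 measured 2915, 2914 and 2649 normalized counts in WT at 4 months and 3024, 2866 and 3180.1 at 19 months, which overlap. Psmd4 measured 2971, 2506 and 2557 normalized counts in the 4-month WT libraries and 2928, 2706 and 4140.3 in the 4-month Gde2KO libraries, against 2525, 2549 and 2609 in WT and 2571, 2652 and 2586 in Gde2KO at 19 months. Psmd4 overlapped between the ages in WT.

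Of 32 genes of proteins that regulate, build or serve the proteasome, limma called 0 between the genotypes at either age. The shares of all genes called were 0.126% at 4 months and 0.0969% at 19 months. At an unadjusted p under 0.05 there were 2 at each age, against 10.6% and 6.91% of all genes. The median log2 fold change of the 32 was 0.21 at 4 months, 0.08 without Gde2KO 3, and -0.02 at 19 months. Nfe2l1 measured 10268, 10146 and 11776 normalized counts in WT and 13124, 11082 and 12683 in Gde2KO at 4 months (log2 fold change 0.20, SE 0.13, limma adjusted p = 0.527), and 12933, 13436 and 12836 normalized counts in WT and 12821, 13402 and 13139 in Gde2KO at 19 months (log2 fold change 0.0058, SE 0.04, limma adjusted p = 0.978). Pomp, the chaperone that completes the core, measured 2648, 2384 and 2858 normalized counts in WT and 3341, 2598 and 5714 in Gde2KO at 4 months, the highest again Gde2KO 3 (log2 fold change 0.49, SE 0.27, limma adjusted p = 0.488), and 2553, 2387 and 2450.4 normalized counts in WT and 2132, 2262 and 2208 in Gde2KO at 19 months (log2 fold change -0.16, SE 0.06, limma adjusted p = 0.668). Its older Gde2KO libraries were below its older WT libraries. Between the ages 0 of the 32 were called in WT, against 13.7% of all genes. There 7 had an unadjusted p under 0.05, against 34.5% of all genes. In Gde2KO 5 were called, all lower, against 9.32% of all genes called lower. Among them were Pomp (-0.74), Akirin2, which carries proteasomes into the nucleus (-0.76), the small lid subunit Sem1 (-0.77), and the ubiquitin fusion gene Rps27a (-0.98), given as log2 fold changes. Without Gde2KO 3 at 4 months 0 of these 4 genes were called.

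Families that encode subunits of other large complexes were set beside the proteasome genes. Cytosolic ribosomal protein genes had a median log2 fold change of 0.39 between the genotypes at 4 months over 81 genes and nuclear genes of the respiratory chain 0.37 over 79, against 0.26 for the proteasome genes. Without Gde2KO 3 the medians were 0.05 and 0.07. Between the ages in WT they were -0.21 and -0.29, and with the length trend removed 0.06 and -0.07, beside -0.26 and -0.16 for the proteasome genes. The differences between these families were not tested.

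Transcript usage within the proteasome genes was compared between the genotypes as a readout apart from the level. The leading transcript held a median of 87.3% of a gene's TPM over the 49 genes, from 33.8% for Psma3, and more than 90% in 21 genes. At 4 months 0 of the 43 genes with 2 or more transcripts above the filter were called in limma's diffSplice test (adjusted p under 0.1 and a shift of more than 10 percentage points), against 1.12% of all such genes. At 19 months it was 0 of 45, against 0.171%. An unadjusted p under 0.05 was found for 5 of the 43 and 2 of the 45, beside 1640 of 12235 and 701 of 12253 of all such genes. Psme2 at 4 months passed the adjusted p alone (limma diffSplice adjusted p = 0.0438), and its most shifted transcript among those tested differed by 4.36 percentage points, higher in Gde2KO. Over the alternatives the lowest adjusted p of any proteasome gene ran from 0.00654 to 0.377, so that this pass was lost in some of them.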

How the data were processed

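Polyadenylated RNA of 12 cortices, 1 library per animal, had been sequenced, pseudoaligned to the GRCm38 transcriptome with Kallisto and normalized in Sleuth by the authors. Reads were demultiplexed with bcl2fastq 2.17. Trimmomatic 0.36 and STAR 2.5.2b served the study's splicing analysis, which was not used here. The authors deposited signal values for each transcript, in one table the estimated counts divided by a size factor per library (called normalized counts) and in another the TPM treated in the same way (called TPM). Genotype, age and 4-month numbers came from the labels. The number of estimated reads was inferred from the commonest low value of each library.

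Transcripts were summed to genes. A gene entered a test if 47% or more of the libraries compared held 5 or more normalized counts. Tests used limma 3.58.1 (R 4.3.3) with its intensity trend, after adding a pseudocount of 0.5 and taking log2. For low genes, fold changes on this scale depend on the pseudocount. Where a library was at 0 they could exceed the ratio of mean normalized counts. Between the ages, Psme2b in Gde2KO had a log2 fold change of 2.41 beside a ratio of means of 3.47. Psma8 in WT had a log2 fold change of -1.27 beside a ratio of means of 0.827. Each age was fitted on its own for genotype, and all 12 libraries in 4 groups for age and for the interaction. Benjamini-Hochberg adjustment was over all genes tested. A call needed an adjusted p under 0.1 together with a fold change of more than 0.5 in natural-log units in either direction. For the interaction no fold was required. Usage of transcripts was compared with diffSplice of limma. The length trend was a lowess curve of each library's log2 values on count-weighted transcript length. The fits were tested on simulated data.

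Values per library are given for the catalytic subunits, called genes, the 3 smallest p in each comparison and the highest and lowest TPM of each class. The genes, the lists and the tests were chosen with earlier results of these data known. Paaf1, of the 33 partner genes listed, was not matched, and of the 32 tested 1 is counted but not named here. Alternatives covered pseudocount, filter, scaling, TPM, fit and libraries left out.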

Additional observations from a re-analysis of the deposited data

How the results depend on the processing

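The counts of 0 called proteasome genes between the genotypes at 4 months, at 19 months, in the interaction and in transcript usage were also 0 in every alternative run for them, including each library left out in turn. The medians depended more on the processing. Leaving out 1 library gave medians from 0.05 to 0.44 at 4 months, from -0.029 to 0.012 at 19 months (the positive value without WT C), from -0.44 to -0.050 for the interaction, from -0.28 to -0.17 for age in WT and from -0.61 to -0.21 for age in Gde2KO, and those nearest 0 at 4 months, in the interaction and in Gde2KO were without Gde2KO 3. With the length trend removed, chosen after seeing the data, the medians were 0.024 at 19 months, -0.0082 for the interaction, -0.16 for age in WT and -0.11 for age in Gde2KO. In WT the called genes between the ages were 0 when a mean of 100 normalized counts was required, which leaves Psmb9 untested (10.2% of all genes), and 8 by the adjusted p alone (28.2%). In Gde2KO, where the main count was 17, they were 9 with TPM (8.97% of all genes), 3 with median ratio scaling (8.92%), 3 with the length trend removed (7.9%), 30 by the adjusted p alone (32.3%) and 2 to 21 with 1 library left out (5.91% without Gde2KO 3 and 15.4% without Gde2KO 2). Median ratio scaling without Gde2KO 3, also chosen after seeing the data, gave 2 called genes there (5.29% of all genes) and a median of -0.10. Calls of single named genes stayed on the same side of the threshold in 781 fits, were lost in 139 and gained in 5, and no fold change reversed. Some of these fits could not move a call or its fold change, as given for Psmb9 above. The replicate block at 4 months gave 0 called genes and a median of 0.26, but same-numbered libraries did not deviate together (correlations 0.060, 0.0071 and -0.048), so the numbers were not taken as pairs. The 19-month libraries carry no numbers. The part of any cause in these changes was not tested. With 3 libraries per group and 2 of the older ones under 10 M reads, differences in Psma8, Psmb11 and Psme2b cannot be resolved.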
